A study of Mus musculus with 4 samples.

Results

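Cohesin was mapped here at promoters of low GC content, through its subunit RAD21, in mouse embryonic stem cells (ESCs) and in the embryoid bodies (EBs) derived from these cells. A site was a deposited peak summit on an autosome, taken from the ESC or the EB list, that lay within 1 kb of an annotated start of a protein-coding gene and had less than 55% GC in the sequence up to 250 bp on either side. An EB summit within 250 bp of an ESC summit was counted once, at the ESC summit. Of 18691 autosomal sites, 954 met this rule, and their GC content ranged from 30.7% to 54.9% with a median of 46.9%. The other sites were 204 at promoters with 55% GC or more, 16945 of low GC content away from promoters (called distal below) and 588 of high GC content away from promoters.

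The ESCs were of the line R1/E at day 0 of differentiation, and the EBs were made from R1/E cells in hanging drops and harvested at day 12. In all groups RAD21 carried a GFP-containing tag encoded on a bacterial artificial chromosome (BAC) transgene, which was present in addition to the cells' own gene, and resistant GFP-positive cells had been sorted. Chromatin was precipitated with a goat antibody against GFP (ChIP-seq), and a goat IgG isotype control, whose description in the labels also speaks of input DNA, was made from each cell type. There was 1 library for each of the 4 combinations of cell type and antibody, so that no difference between ESCs and EBs has a replicate check, and all intervals below cover counting error only. EBs hold many cell types, so fewer cells with an occupied site and less occupancy per cell cannot be told apart, and no expression was measured against which the cell types could be checked.

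Cohesin is a ring-shaped complex of SMC1, SMC3, RAD21 and a STAG subunit that holds sister chromatids together and forms chromatin loops. Along chromosome arms it accumulates where the zinc finger protein CTCF is bound to DNA, and a further share of it is found at active promoters and enhancers, where the loading factor NIPBL acts. Mouse promoters fall into GC-rich ones, mostly CpG islands used in many tissues, and GC-poor ones, many of which serve genes of single tissues.

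The sequences at some of the sites are given first because the results below turn on whether a CTCF motif was present and on its form. The first set holds the best CTCF matches of 5 named sites that were listed in both cell types. Sequences were read from mm9, 5′ to 3′ on the strand of the match, and capitals mark the 20 bases of the match. They lay at chr14:76903097-76903126 (plus strand, Tsc22d1), chr11:113672703-113672732 (minus, Sdk2), chr9:35090201-35090230 (plus, Gm5614), chr11:102762293-102762322 (plus, Gfap) and chr2:66248227-66248256 (minus, Scn1a).
Tsc22d1: agtctTTTGCCACTAGAGGGTAGTAttgca
Sdk2: cctctCTGGCCAGCAGAGGGAGCCAaatga
Gm5614: ctgatACTGCCACCAGATGGCAGTAgtgcc
Gfap: ggtctAGGGCCACTAGATGGCAGTGctgag
Scn1a: acgatGTAGCCACTAGATGGCACTGtaacg

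The next set holds the matches of 3 sites listed in ESCs alone, which were among the 5 sites with the lowest EB to ESC ratio. They lay at chr11:45865928-45865957 (plus, Gm12166), chr5:149690972-149691001 (minus, Katnal1) and chr5:136613961-136613990 (minus, Alkbh4). All 3 share the letters AGGCCAGNAGAGGGC, where N is any base.
Gm12166: ttaggGAGGCCAGAAGAGGGCGTCAgatcc
Katnal1: ctacaGAGGCCAGGAGAGGGCAACAgatcc
Alkbh4: cctccAAGGCCAGAAGAGGGCGCCAgtgac

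The last set shows 50 bases on either side of the summits of 2 sites that had far more reads in EBs and no CTCF match, on the strand of the gene, at chr1:171462429-171462529 (minus, Nuf2) and chr10:67741998-67742098 (minus, Arid5b). Capitals mark the letters TATAAA in the first and AANATGGC, a core of the YY1 motif, in the second. The Nuf2 summit lay 884 bp upstream of the start, and a role of either stretch was not tested.
Nuf2: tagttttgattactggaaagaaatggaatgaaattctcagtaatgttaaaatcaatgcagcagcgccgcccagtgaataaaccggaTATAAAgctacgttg
Arid5b: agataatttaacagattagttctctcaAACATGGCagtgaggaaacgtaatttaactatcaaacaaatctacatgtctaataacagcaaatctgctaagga

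Some facts of the whole series bear on the values. The autosomal read totals were 13714772 for RAD21 and 12602155 for IgG in ESCs, and 7740389 and 6929293 in EBs. Chromosomes 6, 8 and 11 took a smaller share of the reads in EBs than in ESCs, at 0.804 to 0.881 times for RAD21 and 0.811 to 0.874 times for IgG, against 0.954 to 1.11 and 0.965 to 1.10 times on the other autosomes. The EB libraries also held relatively fewer reads in GC-rich DNA: over random genome windows the EB to ESC ratio of RAD21 reads per 1000000 autosomal reads (RPM) fell from 1.14 at 35 to 40% GC to 0.656 at 50 to 55%, and that of IgG reads from 1.13 to 0.648.

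The rule measures GC content at the summit, and the promoter itself need not be GC-poor. When GC content was measured around the nearest start instead, over the same length, 499 of the 954 sites belonged to a start below 55% and 455 lay beside a start of 55% or more. Nearly as many sites thus stood on the shoulders of GC-rich promoters as at GC-poor promoters proper. Both classes are followed below under the names GC-poor starts and GC-rich starts, a division that was made after values had been seen.

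At GC-poor starts the reads gathered directly upstream of the start. In the 100 bp from -200 to -100 they reached 1.87 RPM per kb and start in ESCs and 2.33 in EBs, while IgG stood at 0.46 in both. In the first 100 bp of the transcript both RAD21 libraries stood at 1.55. At GC-rich starts the EB reads were highest between -300 and -200, at 2.14, where ESCs had 1.53, while the ESC reads formed a plateau of 1.41 to 1.53 from -900 to -100. RAD21 reads fell to 0.43 in both cell types over the first 100 bp of the transcript. A further rise lay downstream, at 0.90 in ESCs and 1.46 in EBs from 800 to 900 bp. The rule admits no summit inside GC-rich sequence, and the IgG reads also dipped over the gap, from 0.37 in ESCs and 0.30 in EBs between -300 and -200 to 0.13 and 0.15 in the first 100 bp. What each contributed to the gap in RAD21 reads was not tested.

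**Figure D1:**
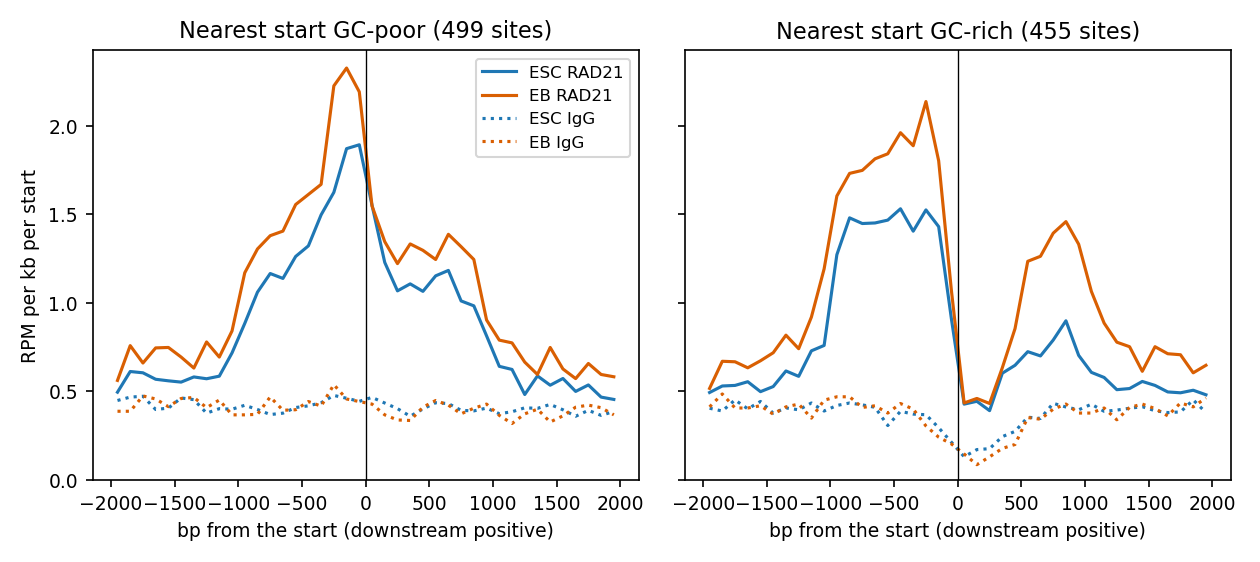
RPM per kb and start, in bins of 100 bp from 2 kb upstream to 2 kb downstream of the start nearest to each site, for 499 sites at GC-poor starts (left) and 455 beside GC-rich starts (right). Solid lines are RAD21 and dotted lines IgG, blue for ESCs and orange for EBs; RAD21 peaks between -200 and -100 bp at 2.33 in EBs on the left, and on both sides of a gap on the right.

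Of the 954 summits, 618 (64.8%, exact 95% interval 61.7 to 67.8) lay upstream of the nearest start. The share was 60.7% at GC-poor starts and 69.2% beside GC-rich starts, a difference of -8.51 percentage points (Newcombe interval -14.5 to -2.44). The fullest bin was -200 to -100 with 101 sites, 62 of them at GC-poor starts, and 16 sites lay 200 to 300 bp downstream. Within 100 bp of a start were 86 of 499 sites (17.2%) at GC-poor starts and 12 of 455 (2.64%) beside GC-rich starts, where the rule itself leaves little room. Sites listed in both cell types were upstream in 71.9% of cases, sites of the ESC list alone in 66.7% and those of the EB list alone in 56.9%. From 500 to 1000 bp downstream the EB list alone gave 14 of 33, 21 of 37, 16 of 40, 24 of 48 and 20 of 36 sites in successive bins of 100 bp.

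**Figure D2:**
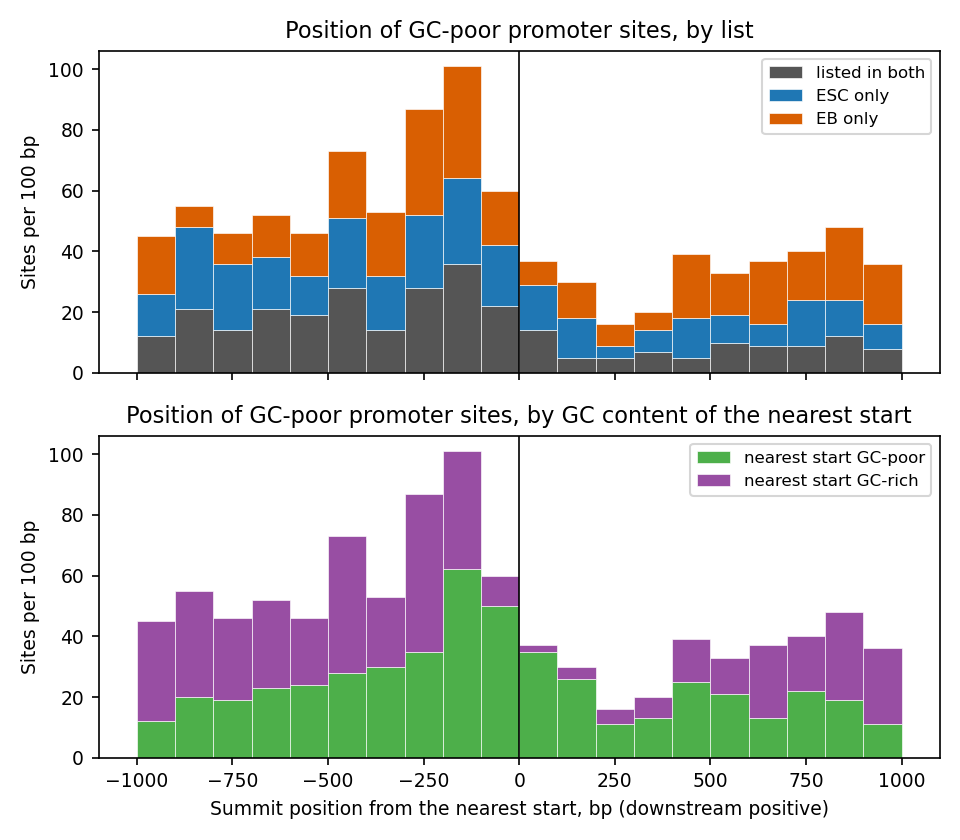
Number of sites per 100 bp (vertical axis) by the position of the summit from the nearest start in bp (horizontal axis, downstream positive), stacked by deposited list (top) and by the GC content of the nearest start (bottom). The fullest bin, -200 to -100 bp, holds 101 sites, and 16 sites lie between 200 and 300 bp.

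By the annotation, 446 summits (46.8%) were in introns of some transcript, 378 (39.6%) outside genes, 66 in UTRs, 25 in coding exons and 39 in exons of transcripts without a coding frame. Within 1 kb of the most upstream start of a gene lay 576 sites (60.4%), and 749 (78.5%) lay within 1 kb of the start of a transcript that is itself coding. The sites belonged to 911 nearest genes, 38 of which had more than 1 site. Trpm5, a cation channel of taste cells, had 4 sites, and the collagen gene Col1a1 and the annotated protocadherin genes Pcdha11 and Pcdhgc5 had 3 each. The sites of Pcdha11 and of Pcdhgc5 lay at different starts that the annotation places under 1 gene. Of all 29869 GC-poor starts, 772 (2.58%, 2.41 to 2.77) had a site of any GC content within 1 kb, against 1492 of 37245 GC-rich starts (4.01%, 3.81 to 4.21). Starts of 1 gene share sites, so these counts are not independent.

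The median ratio of observed to expected CpG dinucleotides was 0.371 at the sites, between 0.216 at distal sites and 0.552 at GC-rich promoter sites. It was 0.287 at GC-poor starts and 0.454 beside GC-rich starts. By list it was 0.310 at sites of ESCs alone, 0.365 at sites of both and 0.440 at sites of EBs alone.

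The lists were then compared to ask which of these sites were called in each cell type. In both lists were 299 of the 954 sites (31.3%, 28.4 to 34.4), in the ESC list alone 309 (32.4%, 29.4 to 35.5) and in the EB list alone 346 (36.3%, 33.2 to 39.4). The share in EBs alone was 18.9% at distal sites of low GC content, 17.3 points lower (14.3 to 20.5), and 10.3% at GC-rich promoters, 26.0 points lower (20.2 to 30.6). GC-poor promoter sites of EBs were thus more often absent from the ESC list, although the ESC library was the deeper one.

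Seen from the ESC list, 299 of 608 sites (49.2%, 45.1 to 53.2) were also called in EBs, against 48.4% of distal sites, a difference of 0.746 points (-3.3 to 4.8). GC-rich promoter sites of ESCs were called again in 29.5% of cases, 19.7 points less often (11.7 to 27.0). Seen from the EB list, 299 of 645 sites (46.4%, 42.5 to 50.3) were also called in ESCs, against 67.5% of distal and 72.0% of GC-rich promoter sites. The differences were -21.1 points (-25.1 to -17.2) and -25.6 points (-35.3 to -13.9).

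The excess of EB sites stood out most beside GC-rich starts. The EB list alone gave 42.9% of the sites there and 30.3% at GC-poor starts, a difference of -12.6 points for GC-poor starts (-18.6 to -6.49). Sites of ESCs alone made up 36.5% at GC-poor and 27.9% beside GC-rich starts (8.56 points, 2.62 to 14.4). For sites in both lists the shares were 33.3% and 29.2% (4.04 points, -1.86 to 9.86), and this difference was within counting error.

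Sites of higher score were more often called in both cell types. The score is the peak caller's -10 log10 of its p-value. Among ESC sites scoring 50 to 70, 70 to 100, 100 to 200 and above 200, the share also called in EBs was 26.3%, 46.3%, 62.4% and 87.5%. For EB sites in the same ranges the share also called in ESCs was 24.2%, 43.8%, 67.05% and 90.4%, and for EB sites away from promoters it was 44.4%, 62.1%, 78.5% and 92.0%. The gap between promoter and distal EB sites was therefore widest in the lowest range and narrowest at the top.

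Reads were also compared by counting, in each library, those within 250 bp of the summit. The lists were called from the same RAD21 reads, so these counts are not independent of the lists. Over the 954 sites the sums were 17862 RAD21 reads in ESCs and 13244 in EBs, with 3100 and 1741 IgG reads. Per site this is 1.37 RPM in ESCs and 1.79 in EBs, with IgG at 0.258 and 0.263. The EB to ESC ratio was 1.31 (exact conditional interval 1.28 to 1.34) for RAD21 and 1.02 (0.963 to 1.08) for IgG. The RAD21 ratio was 1.22 (1.18 to 1.25) at GC-poor starts and 1.44 (1.39 to 1.49) beside GC-rich starts, with IgG at 0.987 and 1.06. Among sites of both lists these classes did not differ beyond counting error, at 1.32 (1.27 to 1.38) and 1.31 (1.24 to 1.37). For sites of ESCs alone the ratios were 0.509 and 0.585, and for sites of EBs alone 2.86 and 3.30. At GC-rich promoter sites the RAD21 ratio was 0.778 (0.737 to 0.821), with IgG at 0.901, and at distal sites 1.09, with IgG at 1.03. Scaled to all autosomal reads, GC-poor promoter sites thus carried relatively more RAD21 reads in EBs and GC-rich promoter sites fewer, and the direction at the GC-rich ones turned when reads were scaled by GC content (median log2 ratio -0.41 before and 0.28 after).

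Site by site the log2 of EB over ESC RAD21 reads, with 1 read added to each library, had a median of 0.43 with quartiles of -0.42 and 1.34, and 610 of the 954 values were above 0. The median was 0.04 over all autosomal sites, 0.06 at distal sites and -0.41 at GC-rich promoter sites. It was 0.31 at GC-poor starts and 0.61 beside GC-rich starts. At least 2-fold higher in EBs were 325 sites (34.1%), where 19.7% of all autosomal sites were. At least 2-fold lower were 119 sites (12.5%), against 23.2% of all sites. Counted by an exact 95% interval that left out a ratio of 1, 296 (31.0%) were higher and 88 (9.22%) lower, against 20.3% and 18.2% of all sites.

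The split depended on the scaling between libraries. Scaled so that sites listed in both cell types had a median log2 ratio of 0, 229 sites (24.0%) were 2-fold higher and 184 (19.3%) lower, against 11.9% and 31.6% of all sites. That scaling moved the median of all sites from 0.04 to -0.35 and that of the GC-poor promoter sites to 0.036, the same shift for every site. Scaled to random windows of the same GC content, 405 (42.5%) were higher and 78 (8.18%) lower, against 23.8% and 18.2% of all sites, with medians of 0.81 and 0.31. Outside chromosomes 6, 8 and 11, 272 of 739 sites were 2-fold higher and 87 lower, with a median of 0.50, and on those 3 chromosomes 53 of 215 were higher and 32 lower, with a median of 0.27. The shares of all sites on these sets of chromosomes were not counted. Scaled to the reads of each chromosome, 323 sites (33.9%) were higher and 108 (11.3%) lower, against 19.4% and 22.4% of all sites.

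**Figure D3:**
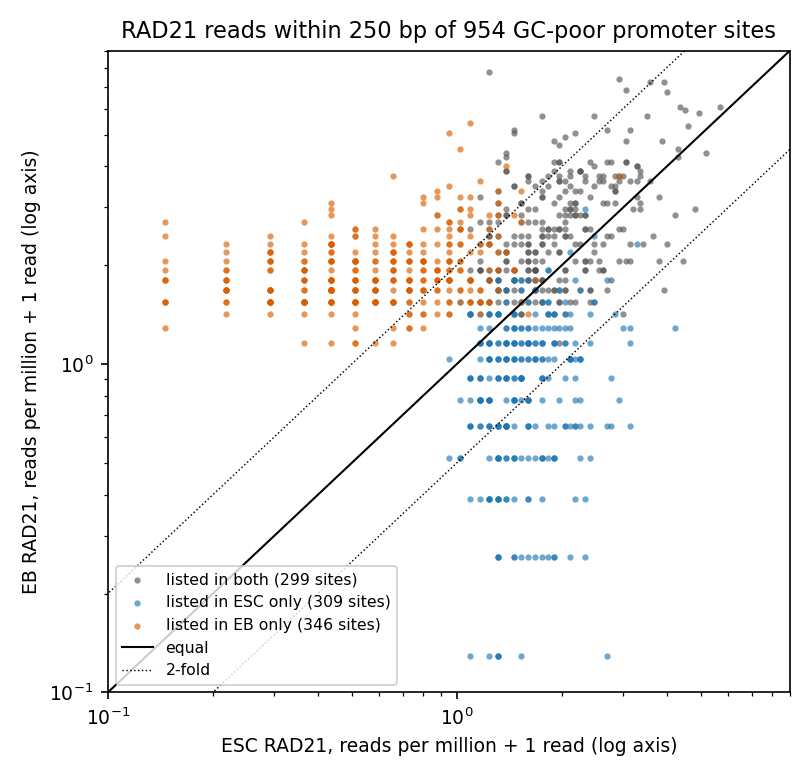
RAD21 reads within 250 bp of each of the 954 summits in ESCs (horizontal) and EBs (vertical), both in RPM on log axes with 1 read added, coloured by list. The solid line marks equal values and the dotted lines 2-fold differences; 325 sites lie on or above the upper dotted line and 119 on or below the lower one.

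At the 299 sites of both lists there was no excess over distal sites before GC content was taken into account. Their median log2 ratio was 0.40, against 0.41 at distal sites of both lists, and their summed reads gave a ratio of 1.32 (1.27 to 1.36), with IgG at 1.06. Within the bands of GC content used below, the promoter sites of both lists had medians of 0.83, 0.56, 0.39 and 0.27 from low to high GC, and the distal ones 0.74, 0.46, 0.27 and 0.11. At sites of ESCs alone the EB to ESC ratio was 0.538 (0.512 to 0.566), and at those of EBs alone 3.08 (2.94 to 3.23), with IgG at 1.02 and 0.990, values that the choice by list fixes in direction. Sites listed in 1 cell type were not empty in the other. Those of ESCs alone held 3.44 times as many RAD21 as IgG reads in EBs, and those of EBs alone held 2.18 times as many in ESCs. Windows of the same kind near starts with no site within 2 kb held 1.09 times as many in ESCs and 1.20 times as many in EBs.

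Those windows differed by the start as well. At GC-poor starts 12777 windows without a site had a RAD21 to IgG ratio of 1.01 in ESCs and 1.04 in EBs, and their EB to ESC ratio of RAD21 reads was 0.952 (0.936 to 0.968). Beside GC-rich starts 6804 windows had ratios of 1.24 and 1.51 over IgG, and their EB to ESC ratio was 1.19 (1.16 to 1.21), with IgG at 0.974. The shoulders of GC-rich starts without any called site thus had relatively more RAD21 reads in EBs, in the same direction as the called sites.

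Because the EB libraries were poorer in GC-rich DNA, the ratio was also read by GC content. In the bands 30 to 40, 40 to 45, 45 to 50 and 50 to 55% GC, which held 123, 236, 300 and 295 sites, the median log2 ratio was 1.47, 0.75, 0.28 and 0.13. Distal sites of the same bands had medians of 0.78, 0.12, -0.23 and -0.39. Sites at GC-poor starts had 1.20, 0.47, -0.059 and -0.12, and sites beside GC-rich starts 1.96, 1.27, 0.50 and 0.24. The fall with GC content was common to all classes, and in each band the order from GC-rich starts to GC-poor starts to distal sites was the same. In each band the share of sites of EBs alone, given below, had this order too. The IgG ratio of the summed reads at the promoter sites was 1.14, 1.10, 0.950 and 0.958 in the 4 bands.

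**Figure D4:**
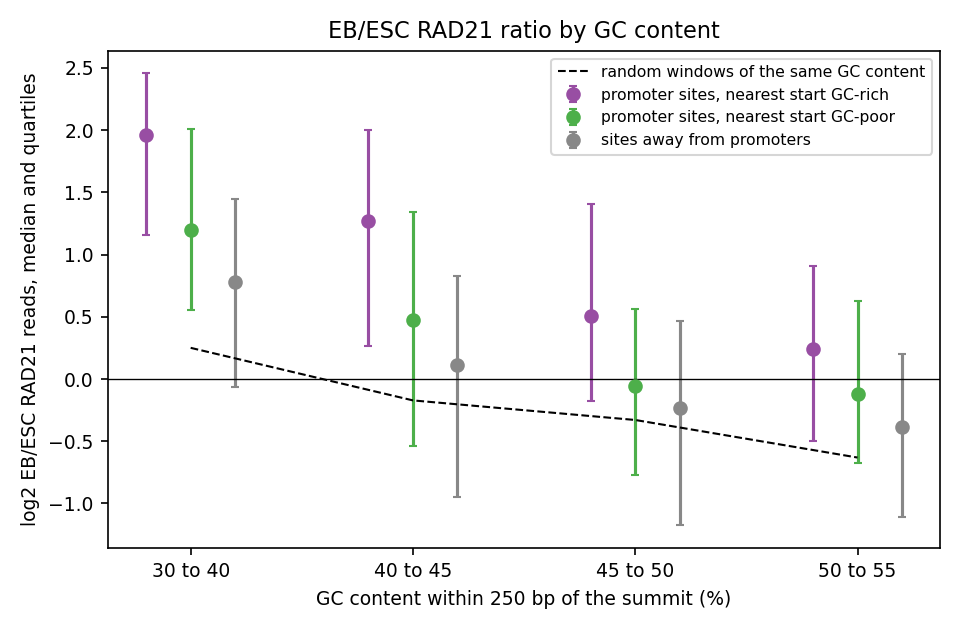
Median log2 of EB over ESC RAD21 reads (points) with quartiles (bars) in 4 bands of GC content around the summit, for sites beside GC-rich starts (purple), at GC-poor starts (green) and away from promoters (grey), with random windows as a dashed line. In the band of 30 to 40% GC the medians are 1.96, 1.20 and 0.78, and in each band they fall in this order.

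The share of sites in the EB list alone followed the same bands, at 62.6%, 46.2%, 29.0% and 24.7% from the lowest to the highest GC content, against 34.5%, 18.9%, 11.8% and 8.54% at distal sites. Beside GC-rich starts it was 76.6%, 62.5%, 39.0% and 27.4%, and at GC-poor starts 53.9%, 36.5%, 20.1% and 20.7%. Just inside the GC limit, the 113 sites of 53 to 55% had a median log2 ratio of -0.10 and 40.7% were in both lists. Just outside it, the 104 promoter sites of 55 to 57% had a median of -0.27 and 34.6% in both lists. Scaled by GC content these medians were 0.46 and 0.53, so that both signs and the order of the bands turned. At the distance limit the 81 sites from 900 to 1000 bp had a median of 0.78, and 86 sites of low GC content from 1001 to 1100 bp one of 0.62.

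CTCF binding was approached through its sequence motif, since no CTCF library was analysed here. A match within 150 bp of the summit, at a threshold passed by 1e-05 of the positions in random windows, was present at 302 of 954 sites (31.7%, 28.7 to 34.7). At 182 of 19586 windows near starts with no site (0.929%) there was such a match. Distal sites had one in 47.8% of cases, a difference of -16.1 points for promoter sites (-19.1 to -13.0), though the matrix was itself learned on sites away from promoters. GC-rich promoter sites had one in 32.8%, and the difference of -1.19 points (-8.49 to 5.6) was within counting error. At the looser rate of 1e-04 the shares were 64.9% (61.8 to 67.9) at GC-poor promoter sites, 84.3% at distal and 78.9% at GC-rich promoter sites, and 6.22% in the windows with no site.

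The motif separated the lists. It was present at 40.5% of sites in both lists, at 41.4% of sites of ESCs alone and at 15.3% of sites of EBs alone. Sites of both lists exceeded those of EBs alone by 25.2 points (18.3 to 31.8), and differed from those of ESCs alone by -0.956 points (-8.72 to 6.83). At the looser rate the shares were 86.3%, 75.7% and 36.7%, and sites of both lists then exceeded those of ESCs alone by 10.6 points (4.33 to 16.7). A motif was also more frequent at GC-poor starts, at 38.5% against 24.2% beside GC-rich starts (14.3 points, 8.43 to 20.0). Fewest motifs were found at EB-only sites beside GC-rich starts, with 12.3% at the strict and 29.2% at the looser rate. At distal sites of low GC content the share was also lowest in EBs alone. There a strict match, other than the form counted below, was at 3511 of 6654 sites of both lists. It was at 2833 of 7085 sites of ESCs alone and 961 of 3206 of EBs alone.

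**Figure D5:**
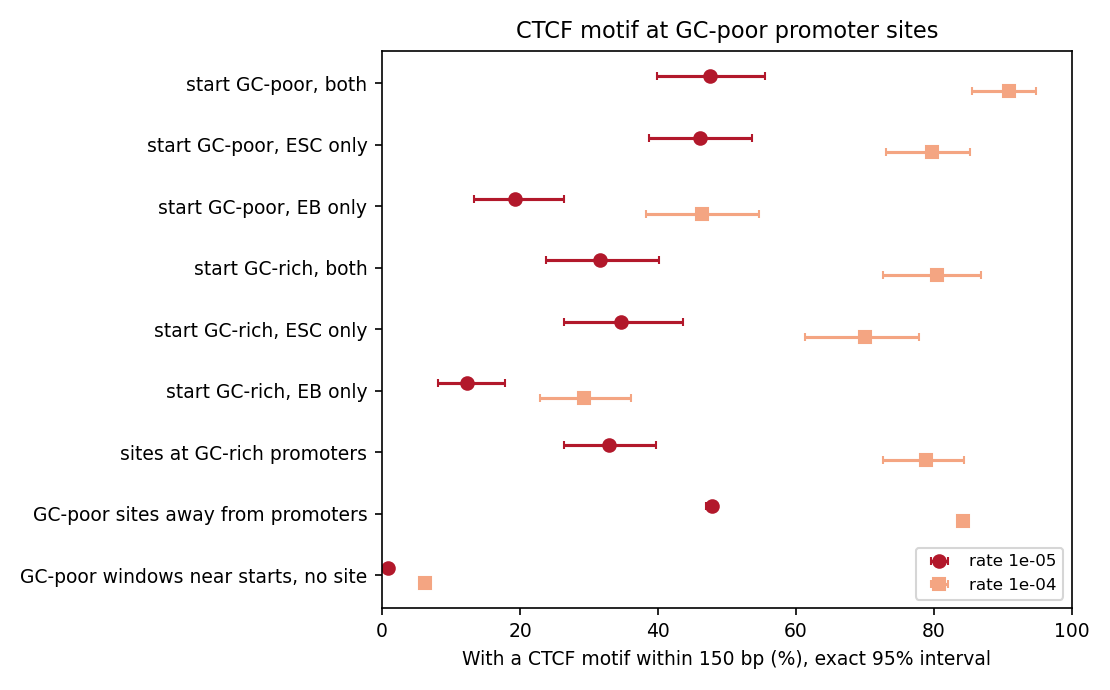
Share of sites with a CTCF motif within 150 bp of the summit (horizontal axis, percent, with exact 95% intervals) at rates of 1e-05 (circles) and 1e-04 (squares), by the GC content of the nearest start and by list, beside other classes of sites and windows without a site. Sites of EBs alone have 19.2% and 46.4% at GC-poor starts and 12.3% and 29.2% beside GC-rich starts, below the sites of the other lists.

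Motifs pointed either way relative to the gene: 146 of 302 (48.3%, 42.6 to 54.1) were on its strand. Read in the orientation printed above, the centre of the motif had the summit a median of 37.5 bp downstream of it, with 75.2% of summits (69.9 to 79.9) on this 3′ side. At distal sites the median was 46.5 bp, with 79.9% on the same side, a difference of -4.72 points (-9.96 to -0.101). The share was 81.2% at GC-poor starts and 64.5% beside GC-rich starts.

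The form of the motif shared by Gm12166, Katnal1 and Alkbh4 was then counted over all sites. The pattern AGGCCAGNAGAGGGC is the longest run with at most 1 free base in which their 3 matches were the same. It was searched on both strands within 150 bp of the summit, was chosen after the values of those 3 sites had been seen, and overlaps the CTCF matrix: all 27 promoter sites that held it (2.83%, 1.87 to 4.09) also had a CTCF match. It was at 19 of 19586 windows with no site (0.0970%) and at 797 distal sites (4.70%). Of the 27 promoter sites, 22 were listed in ESCs alone, 5 in both and 0 in EBs alone. The share in ESCs alone was 81.5% (61.9 to 93.7), against 38.5% (32.8 to 44.6) of the 275 sites with another CTCF match, a difference of 42.9 points (23.8 to 54.7). The 3 sites that had shown the pattern, all of ESCs alone, are counted in this share and difference. Without them 19 of 24 sites (79.2%, 57.8 to 92.9) were of ESCs alone.

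These 27 sites had 15 to 42 RAD21 reads in ESCs (median 21) and 0 to 30 in EBs (median 6), with sums of 640 and 175 and IgG sums of 87 and 38. The EB to ESC ratio was 0.484 (0.408 to 0.574) for RAD21 and 0.794 (0.528 to 1.18) for IgG, while at sites with another CTCF match it was 1.14 (1.09 to 1.18) for RAD21 and 1.01 for IgG. Without the 3 sites that had shown the pattern it was 0.554 (0.465 to 0.659) over 24 sites. At least 2-fold lower in EBs were 14 of the 27 sites (51.9%), or 11 of 24 (45.8%) without those 3, and 0 were at least 2-fold higher. Over all autosomal sites 23.2% were lower and 19.7% higher. Of the 275 promoter sites with another CTCF match, 39 were lower and 46 higher. The same difference was present away from promoters, where no site had been used to choose the pattern. Of the 797 distal sites that held it, 728 (91.3%, 89.2 to 93.2) were of ESCs alone, against 38.8% with another match, a difference of 52.6 points (50.1 to 54.6). Their EB to ESC ratio was 0.404 (0.391 to 0.418) for RAD21 and 0.817 (0.761 to 0.877) for IgG. Of the 27 promoter sites, 19 were at GC-poor starts and 6 on chromosomes 6, 8 and 11. Whether these sites are copies of a repeated element, and how uniquely their reads aligned, was not tested.

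Short patterns of promoter factors were mostly as frequent at the sites as in the windows with no site. Each was searched on both strands within 150 bp. TATAAA, the TATA box, was at 15.8% of the sites and 21.1% of the windows, and at GC-poor starts at 15.8% against 23.7%. CCAAT, bound by NFY, was at 34.5% and 35.6%. The exact interval lay above the share of the windows for 4 of the 12 patterns, with no adjustment for their number. These were TGACGTCA, the CREB site, at 0.839% (0.363 to 1.65) against 0.291%, CCGGAAG, an ETS site, at 2.94% (1.96 to 4.21) against 1.94%, the ZFP143 motif at 1.36% (0.728 to 2.32) against 0.694%, and the E-box CACGTG at 5.66% (4.28 to 7.32) against 4.13%. The CREB pattern was counted at 8 sites and the ZFP143 motif at 13. Within the classes of starts, only the ETS pattern of these 4 stayed above the windows, at GC-poor starts with 3.21% (1.84 to 5.15) against 1.53%. Beside GC-rich starts the ETS pattern was at 2.64% of the sites and 2.70% of the windows. For the CREB, ZFP143 and E-box patterns the interval of each class, with fewer sites, held the share of its windows. The remaining patterns were AANATGGC (YY1) at 5.35% and 5.14%, ATGCAAAT (Oct) at 2.10% and 1.67%, AGATAAG, bound by factors of the GATA family, at 4.72% and 4.09%, TGTTTAC (Fox) at 4.30% and 4.19%, CCACACCC (Klf) at 1.57% and 2.18% and TCAAGGTCA (Esrrb) at 0.524% and 0.939%.

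The strongest site of the ESC list belonged to 2610002J02Rik, with its summit at 154623522 on chromosome 4, 389 bp upstream of the start. It had 77 RAD21 reads in ESCs and 46 in EBs, with 0 and 2 IgG reads. The ratio after scaling was 1.06 (0.718 to 1.54), so that the site was strong in both cell types. Sdk2, a synaptic adhesion molecule, had 59 reads in ESCs and 46 in EBs 942 bp upstream of its start, with 4 and 5 IgG reads and a ratio of 1.38 (0.919 to 2.07). Sept9, a septin of the cytoskeleton, had 67 and 44 reads 961 bp upstream, with 6 and 0 IgG reads and a ratio of 1.16 (0.777 to 1.73). The site of Wbscr28 had 65 reads in ESCs and 22 in EBs, with 1 and 3 IgG reads, and was lower in EBs at 0.600 (0.352 to 0.986).

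The highest score of the EB list, 653.29, belonged to the site 843 bp upstream of a start of Tsc22d1, a leucine zipper gene induced by TGF-β, whose motif is shown above. It had 53 RAD21 reads in ESCs and 55 in EBs, with 7 and 3 IgG reads, and after scaling was higher in EBs at 1.84 (1.24 to 2.73). Gm5614 had 39 and 56 reads, with 3 and 1 IgG reads and a ratio of 2.54 (1.66 to 3.93). Blcap had 48 and 55 reads 463 bp upstream of its start, with 4 IgG reads in each cell type and a ratio of 2.03 (1.35 to 3.05).

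Nuf2, which encodes a kinetochore protein, stood apart among the strong EB sites. Its site lay 884 bp upstream of the start in DNA of 31.3% GC and had 16 RAD21 reads in ESCs and 59 in EBs, with 0 and 2 IgG reads. The EB to ESC ratio was 6.53 (3.71 to 12.2). It was called in both cell types, with a score of 93.17 in ESCs and 549.09 in EBs, and no CTCF match was found there at either rate.

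Among sites with at least 20 RAD21 reads in both libraries together, 2 had no read left in EBs. Gm12166 had 36 reads in ESCs and 0 in EBs, with 7 and 3 IgG reads, and was at least 6.77-fold lower when the EB count was set at a floor of 3 reads. Alkbh4, a demethylase gene, had 20 and 0 reads, with 1 IgG read in each cell type, and was at least 3.76-fold lower. Gm12166 and Ggt6 are on chromosome 11, which held fewer EB reads as a whole. Ggt6 had 31 reads in ESCs and 1 in EBs, with 7 and 0 IgG reads and a ratio of 0.0572 (0.0014 to 0.343). Katnal1, a gene of the microtubule-severing katanin family, had 28 and 1 reads, with 4 and 1 IgG reads and a ratio of 0.0633 (0.00155 to 0.383). These sites were chosen for their low ratios, so their direction was fixed and the intervals do not allow for the choice.

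The sites with the highest ratios were all of the EB list alone and in DNA of 30.7% to 39.9% GC, where the EB libraries were relatively rich in reads. Zc3h15 had 1 RAD21 read in ESCs and 20 in EBs 415 bp downstream of its start, with 4 and 2 IgG reads and a ratio of 35.4 (5.67 to 1469). Arid5b, a chromatin regulator, had 3 and 18 reads 574 bp upstream, with 7 and 3 IgG reads and a ratio of 10.6 (3.10 to 56.3). Ubfd1 had 3 and 17 reads, with 5 and 3 IgG reads and a ratio of 10.04 (2.90 to 53.5). In each of these the EB count was several times the ESC count before any scaling, but the sites were chosen for their high ratios. Their direction was fixed by that choice, and the intervals here do not allow for it. Pcdh15, a cadherin of the hair cells of the inner ear, had 4 and 20 reads, with 2 and 3 IgG reads and a ratio of 8.86 (2.97 to 35.6). Cpeb2, which binds cytoplasmic polyadenylation signals in mRNA, had 5 and 23 reads, with 2 and 3 IgG reads and a ratio of 8.15 (3.03 to 27.4).

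Genes of the clustered protocadherins, adhesion molecules of which single neurons express different sets, had sites at their promoters most often of the gene groups examined. Of 24 genes with a GC-poor start, 13 (54.2%, 32.8 to 74.4) had a site, against 516 of all 14255 genes with such a start (3.62%, 3.32 to 3.94). Pcdha11 and Pcdhgc5 each count as 1 gene here, although their sites lay at different starts. The 17 sites of the group on chromosome 18 were listed in ESCs alone in 14 cases, in both in 2 and in EBs alone in 1. They had 7 to 57 RAD21 reads in ESCs (median 20) and 1 to 18 in EBs (median 7), with IgG sums of 45 and 28. The log2 ratio was below 0 at 15 of the 17 and its median was -0.71, with 7 sites at least 2-fold lower and 1 at least 2-fold higher, beside the 12.5% and 34.1% of all GC-poor promoter sites. None of the 17 had a CTCF match at the strict rate and 7 had one at the looser rate.

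Within the cluster, the Pcdhb genes formed an even row, a subset set apart after the values had been seen. Of these genes, 11 sites between 37454529 and 37677992 lay within 93 bp of their starts and all were of the ESC list alone. They had 16 to 25 RAD21 reads each in ESCs and 1 to 8 in EBs, with sums of 219 and 57 and IgG sums of 31 and 17. The EB to ESC ratio of the sums was 0.461 (0.338 to 0.620), with IgG at 0.997 (0.518 to 1.86). Its direction is fixed by the list, and over all 309 sites of the ESC list alone the ratio was 0.538. The read ranges did not overlap as raw counts, from libraries of unequal depth. Pcdhb22 had the lowest ratio, with 25 reads in ESCs and 1 in EBs and no IgG read in either. The 3 sites annotated to Pcdhgc5, at starts between 37901466 and 37925590, had sums of 93 and 26 (0.495, 0.308 to 0.772). The strongest of them had 57 reads in ESCs and 9 in EBs, with 1 IgG read in each. The 3 sites annotated to Pcdha11, between 37112266 and 37179772, had 61 and 35 reads. Their ratio of 1.02 (0.651 to 1.57) did not differ from 1 beyond counting error.

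Among the other gene families, olfactory, vomeronasal and taste receptors had a lower share of genes with a site than the 3.62% of all genes with a GC-poor start. Of 1101 olfactory receptor genes, 2 (0.182%, 0.022 to 0.655) had one, at the coding exons of Olfr15 and Olfr1495 and in ESCs alone. Olfr15 had 30 RAD21 reads in ESCs and 7 in EBs, with 2 IgG reads in each, and Olfr1495 had 22 and 1, with 1 in each. No site was found at 366 vomeronasal and taste receptor genes, which allows a share of up to 0.820% when 3 counts are taken as the limit of a count of 0 (exact upper limit 1.00%), at 79 keratin genes (up to 3.80%, exact 4.56%) or at GC-poor starts of 42 histone genes (up to 7.14%, exact 8.41%), and for the keratins and histones these limits lie above 3.62%. Zinc finger genes of the Zfp series had a site at 10 of 247 (4.05%, 1.96 to 7.32), cytochrome P450 genes at 3 of 84, serpins at 1 of 55, solute carriers at 6 of 217, ion channels at 4 of 86 (4.65%, 1.28 to 11.5) and proteases at 9 of 118 (7.63%, 3.55 to 14.0), and the intervals of Zfp genes, ion channels and proteases hold the share of all genes. Immunoglobulin-like and lectin-like receptors had a site at 1 of 140 genes and chemokines, interleukins and their receptors at 2 of 101.

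Zfp genes, counted with the sites beside GC-rich starts, had 15 sites, of which 8 were in EBs alone, 5 in ESCs alone and 2 in both. The counts ran from 1 to 41 reads in ESCs and from 1 to 52 in EBs, and 8 sites were at least 2-fold higher and 3 at least 2-fold lower in EBs, beside 34.1% higher and 12.5% lower of all GC-poor promoter sites. Zfp54 had 41 and 52 reads, with 3 and 7 IgG reads and a ratio of 2.25 (1.46 to 3.47). Zfp521, a regulator of neural and blood progenitors, had 5 reads in ESCs and 22 in EBs and no IgG read (7.80, 2.88 to 26.4). Zfp74 went the other way, with 30 and 5 reads and 4 IgG reads in each (0.295, 0.0895 to 0.769).

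The lineage lists had 0 or 1 gene each with a site at a GC-poor start, which at these list sizes cannot be told from the 3.62% of all such genes. Of 22 pluripotency genes Jarid2, a partner of Polycomb repressive complex 2, had one, directly on its start, with 6 RAD21 reads in ESCs, 15 in EBs and 2 IgG reads in each (4.43, 1.62 to 13.9). Among 27 blood and endothelial genes the site was at Runx1, the regulator of definitive blood formation, 170 bp upstream of a start, with 2 and 12 reads and 2 IgG reads in each (10.6, 2.37 to 97.8). Of 27 heart and muscle genes Tnni3, which encodes cardiac troponin I, had 22 reads in ESCs and 3 in EBs 154 bp upstream, with 2 and 1 IgG reads (0.242, 0.0463 to 0.804). Jarid2 and Runx1 were listed in EBs alone and Tnni3 in ESCs alone, so the list fixed the direction at each. Of 26 endodermal genes none had a site at a GC-poor start, which allows up to 11.5% by the limit of 3 counts (exact 13.2%), and Apob had 34 and 28 reads beside a GC-rich start (1.46, 0.852 to 2.48), with 2 and 0 IgG reads.

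Neural genes had 4 sites, 1 in both lists (Gfap) and 3 in ESCs alone, Gad1 and Nes among them. The log2 ratio was below 0 at 3 of the 4, with a median of -0.45. They had 12 to 23 RAD21 reads in ESCs and 3 to 27 in EBs. Gfap, the intermediate filament of astrocytes, had 23 reads in ESCs and 27 in EBs, with 4 and 2 IgG reads (2.08, 1.15 to 3.80). Gad1, which makes the transmitter GABA, had 19 and 7 reads and no IgG read (0.653, 0.232 to 1.62), and Nes had 20 and 8, with 2 IgG reads in each (0.709, 0.270 to 1.68). Neither differed detectably at this depth. Stag1, a subunit of cohesin itself, had a site 605 bp upstream of a GC-rich start, listed in EBs alone. It had 6 reads in ESCs and 13 in EBs, with 3 and 2 IgG reads (3.84, 1.36 to 12.3).

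At the Hox clusters Hoxa5 had a site 14 bp inside its transcript, listed in ESCs alone. It had 38 RAD21 reads in ESCs and 10 in EBs, with 1 and 0 IgG reads (0.466, 0.207 to 0.954). Hoxb5 had 22 and 12, with 7 and 1 IgG reads, and a ratio of 0.966 (0.436 to 2.04). The chemokine receptor gene Cxcr4 had a site of the EB list alone 495 bp upstream. It had 8 and 17 reads, with 3 and 5 IgG reads (3.77, 1.54 to 10.1). Scn1a, a neuronal sodium channel gene whose motif is shown above, had 23 and 24 reads, with 4 and 2 IgG reads (1.85, 0.999 to 3.43). The histone gene Hist1h4c had 17 and 20 reads beside a GC-rich start, with 1 and 2 IgG reads (2.08, 1.04 to 4.24).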

How the data were processed

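ChIP-seq of GFP-tagged RAD21 and of IgG was analysed in 4 libraries, grouped by the sample labels. The authors sequenced reads of 35 bases, aligned them to mm9 and deposited 1 position per line, here shifted to the fragment centre and counted. The aligner is not given in the sources used here. The deposited peak lists, called per cell type with MACS against IgG, hold a score of -10 log10 of the p-value, lowest 50.01, and the deposited summits hold a signal, the fragment coverage at the summit. The files held no position repeated on the same strand. In the ESC IgG file 7 lines were broken and skipped, and the EB IgG file ended within chromosome X, so only autosomes were compared.

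Reads were counted within 250 bp of the summit and scaled to autosomal reads (RPM), and log2 ratios used 1 added read per library. Fragment lengths were 205 bp in ESCs and 197 bp in EBs. Transcription starts came from GENCODE vM1. A CTCF matrix of 20 positions was learned on 17533 sites away from promoters. Its thresholds were set at rates of 1e-05 and 1e-04 of 14100000 positions, on both strands, in alternate windows of 50000 random ones. Windows without a site lay up to 1000 bp from starts that were more than 2000 bp from any summit. The distance of the window itself from a summit was not limited. Those with 5 RPM or more of IgG were left out of summed reads. Shares have exact Clopper-Pearson intervals, their differences Newcombe intervals and read ratios exact conditional intervals, all at 95%. For a share of 0 the limit of 3 counts is given too. Reads of 1 library per group compare libraries, not conditions, and no p-value was computed.

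Named sites were the 6 highest scores of each list, the 5 lowest and 5 highest EB to ESC ratios among sites with 20 or more RAD21 reads, and up to 3 sites of highest score per gene group; not all are described. The sites and gene groups were chosen with earlier results of these data known. Python 3.11.15, numpy 2.4.6, pandas 2.3.3, scipy 1.17.1 and pysam 0.24.0 were used, and the counting and motif steps were tested on simulated data. Alternatives concerned the distance and GC limits, the score, counting window, pseudocount, scaling, motif threshold and annotated starts.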

Additional observations from a re-analysis of the deposited data

Results flagged for a closer look

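Chromosome X was left out of all comparisons because the EB IgG file was incomplete there. In ESCs, 5 sites of chromosome X met the same rule of distance and GC content, and they held 94 RAD21 reads against 9 IgG reads, a ratio of 9.60 after scaling (exact conditional interval 4.85 to 21.6). It is listed because it is a signal outside the data compared above. The EB list had 6 such sites, of which 1 lay within the part that both EB files cover, with 12 RAD21 reads and 0 IgG reads.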

How the results depend on the processing

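No paired analysis was possible because the labels carry no replicate numbers and there was 1 library per group. Under 60 alternatives to the summary values, 30 stayed within the counting error, or within 1.5 times for counts, 30 moved and 0 reversed. Only the median log2 ratio and the median distance from motif to summit could be labelled reversed, since counts, shares and RAD21 to IgG ratios have no sign. The number of sites was 516 within 500 bp of a start, 1791 within 2 kb, 576 with only the most upstream start of each gene and 368 with a score of at least 100, when 61.7% were in both lists. The median log2 ratio was 0.81 when scaled by GC class and 0.036 when centred on sites of both lists, and the sites at least 2-fold lower numbered 78 when scaled by GC class. Divided by the GC content of the nearest start, chosen after seeing the data, GC-poor and GC-rich starts gave medians of 0.31 and 0.61, 78 and 41 sites lower, 149 and 176 higher, motifs at 38.5% and 24.2% and upstream shares of 60.7% and 69.2%. The last share was 72.4% with the most upstream start of each gene. The motif share was 64.9% at the rate of 1e-04, 14.7% with the plain core pattern, 41.0% at sites of the ESC list and 27.0% at those of the EB list. GC-poor starts with a site were 1.57% within 500 bp, 4.61% within 2 kb and 2.01% below 50% GC. The median RAD21 to IgG ratio was 4.29 in ESCs and 4.77 in EBs, moving to 3.51 and 4.03 within 500 bp of the summit and to 5.29 and 6.59 with a pseudocount of 0.1 read. For moves without an evident construction, the cause was not tested. Leaving out chromosomes 6, 8 and 11 was also chosen after seeing the data. Of 348 values of named sites, 345 stayed, 3 moved and 0 reversed, where only sites whose interval left out a ratio of 1 could be labelled reversed. With a median of 18 RAD21 reads per site in ESCs and 12.5 in EBs, single sites could show only large differences.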
